A study of Homo sapiens with 6 samples.

Results

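The genes of the fibroblast growth factor (FGF) receptors were examined in A375 cells, together with the decoy receptor gene FGFRL1, the ligand gene FGF2 and the receptor adaptor genes FRS2 and FRS3. Of these 8 genes, 7 had a probe set that names only that gene in the probe-to-gene table, out of 18417 genes measured in this way. FRS2 had none and is not analysed here. Each of the 7 had 1 probe set, so no choice among probe sets was needed. A375 cells are a long-established line from a human melanoma. They were grown for 24 h after seeding at 1000000 per dish and then spent another 24 h with either 0.1% DMSO, the vehicle, or 10 µM of the kinase inhibitor vemurafenib, a melanoma drug. Total RNA from 3 vehicle dishes and 3 vemurafenib dishes was hybridised to single-colour Affymetrix arrays, 1 array per dish. The replicates of a group came from different cell stocks handled on different days, per the series' design text. All of the RNA came from 1 cell line and 1 time point, and the vehicle arrays are the only controls.

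FGFs are secreted proteins that bind receptor tyrosine kinases together with heparan sulfate, which brings receptors into pairs that phosphorylate each other. The activated receptor phosphorylates the membrane-bound adaptors FRS2 and FRS3, which dock GRB2, SOS and the phosphatase SHP2 and so pass the signal to the RAS-ERK and PI3K pathways. ERK in turn switches on inhibitors such as Sprouty proteins that damp the receptor. FGF2 is known as a growth factor that melanoma cells make for themselves, whereas normal melanocytes need it from outside.

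With vemurafenib the genes of this receptor system moved in both directions. FGFR2 rose 2.19-fold, FGFR4 1.35-fold, FRS3 1.19-fold and FGFR3 1.17-fold. FGFRL1 fell 2.50-fold, FGFR1 1.23-fold and FGF2 1.22-fold. Thus all 7 measured genes passed the limma adjusted p threshold of 0.05, 4 higher and 3 lower, against 45.5% of all genes tested (23.2% higher and 22.2% lower). Of the 7, only FGFR2 rose and only FGFRL1 fell by at least 2-fold, against 3.07% and 2.62% of all genes in those directions (5.69% together). The calls of FGFR3 and FRS3 lay close to the threshold and ended under several other settings, as given with their values. The direction of these calls across all genes depends somewhat on scaling: 4281 genes were higher and 4090 lower as deposited, and 3682 and 5630 after each array was centred on the median of the tested genes.

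Every value is a log2 level and every change is the vemurafenib mean minus the vehicle mean on that scale, tested over all genes with limma and Benjamini-Hochberg adjustment. Folds are ratios of array values, and array processing of this kind compresses large ratios. Levels of different genes come from different probes, so levels of single genes are not ranked, and the level of a gene is read only against background. Values describe RNA from whole dishes, so fewer cells of a kind and less RNA per cell cannot be told apart. Array medians lay between 7.69 and 7.73. Precision is limited by the number of arrays, which have no sequencing depth. Of 9 measured markers of melanoma and pigment cells, 5 rose and 0 fell (55.6% passed, against 45.5% of all genes). Background was read from the 5.52 median of 361 olfactory receptor genes, which such cells hardly express. SOX10 (11.48 and 11.78 in vehicle and drug), MITF (10.17 and 10.91) and S100B (10.30 and 11.21) stood well above that median. The pigment genes MLANA (5.78 in both groups), TYR (5.34 and 5.17) and TYRP1 (5.40 and 5.69) were close to that median. PMEL (6.60 and 6.72) lay above the upper quartile of the olfactory receptor gene means (6.22). In both groups it was still within the dimmest 25% of genes.

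FGFR2 encodes a receptor whose splice forms differ between epithelial and mesenchymal cells, and it showed the largest rise of the 7 genes. Its level (probe set 7936734) was 6.59, 6.58 and 6.37 on the 3 vehicle arrays and 7.49, 7.64 and 7.80 on the 3 vemurafenib arrays. Every drug array lay above every vehicle array, with a gap of 0.90 between the groups. Mean levels were 6.51 ± 0.12 and 7.64 ± 0.15 (SD, n = 3), and the log2 change was 1.13 (SE 0.09, 95% interval 0.92 to 1.34) with a limma adjusted p of 2.10e-06. A rise this large or larger was seen in 422 of all genes (2.29%). The vehicle level lay within the dimmest 25% of genes (up to 6.87), and 16.1% of olfactory receptor genes had a mean at least as high. The vehicle level was therefore not shown to be above background, and the fold is limited by it. The probe set gives 1 value for the gene and does not separate its splice forms.

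FGFR4, the receptor that answers to FGF19 in the liver, was also higher on every drug array. It stood at 8.12, 8.09 and 8.09 in vehicle, where the arrays differed by no more than 0.03, and at 8.47, 8.41 and 8.70 with vemurafenib (probe set 8110265). Means of 8.10 ± 0.02 and 8.53 ± 0.15 (SD, n = 3) gave a difference of 0.43 on the log2 scale (SE 0.08, 95% interval 0.24 to 0.61; limma adjusted p 0.00149). The drug arrays were spread over 0.29, of which most was due to replicate 3. Without vemurafenib replicate 3 the change was 0.34, and the limma adjusted p was 0.00397.

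FGFR3, a receptor best known for restraining bone growth, changed least of the 4 receptors with a kinase domain. Its values were 8.42, 8.38 and 8.31 in vehicle and 8.59, 8.47 and 8.72 with vemurafenib (probe set 8093518). The groups did not overlap, but only 0.05 separated the highest vehicle array from the lowest drug array. Its vehicle mean was 8.37 ± 0.05 and its drug mean 8.59 ± 0.13 (SD, n = 3), so the log2 change was 0.22 (SE 0.08, 95% interval 0.04 to 0.40) with a limma adjusted p of 0.0436. A rise of this size or more was shared by 23.2% of all genes. The FGFR3 call ended in 11 of 17 alternatives, over which the limma adjusted p ran from 0.0195 to 0.134. Omission of vehicle replicate 1, 2 or 3 gave limma adjusted p values of 0.07, 0.069 and 0.132, and omission of vemurafenib replicate 1 or 3 gave 0.0978 and 0.134. The call was kept when vemurafenib replicate 2 was omitted (limma adjusted p 0.0195).

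FGFR1, a receptor widely expressed in mesenchymal cells, moved the other way. It measured 8.59, 8.54 and 8.61 on the vehicle arrays and 8.26, 8.24 and 8.35 on the vemurafenib arrays (probe set 8150318). All 3 drug values lay below all 3 vehicle values, with a gap of 0.19. On average it stood at 8.58 ± 0.03 and 8.28 ± 0.06 (SD, n = 3), and the log2 change was -0.30 (SE 0.07, 95% interval -0.45 to -0.14; limma adjusted p 0.00452). The FGFR1 call was kept in 17 of 17 alternatives, with limma adjusted p values between 0.000485 and 0.0216. The 4 kinase receptors were thus not shifted as a block, since 3 were higher and FGFR1 was lower in the same 3 drug arrays. Of those 3, the FGFR3 call ended in 11 of 17 alternatives.

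**Figure D1:**
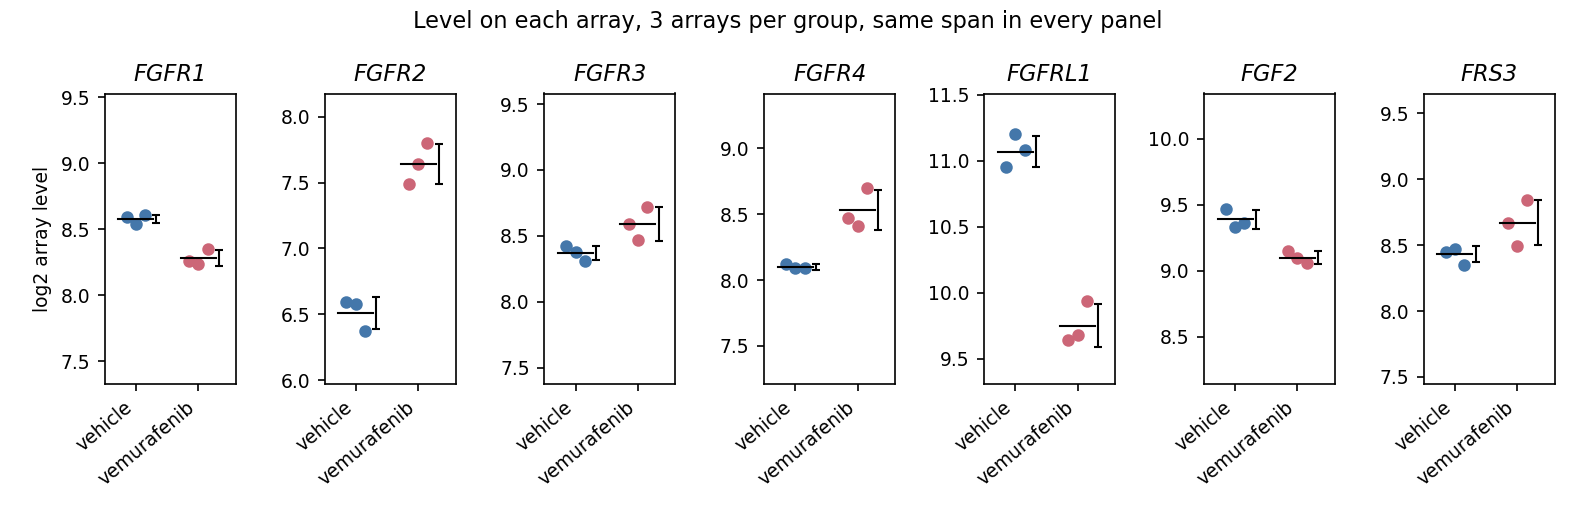
Log2 array level of each of the 7 measured genes on each array (points, 3 vehicle in blue and 3 vemurafenib in red), with the group mean (black line) and SD (bar). The vertical axes start at different levels but cover the same span, and the largest separations are those of FGFRL1 (11.07 to 9.75) and FGFR2 (6.51 to 7.64).

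FGFRL1 encodes a receptor-like membrane protein that binds FGFs and heparan sulfate but lacks the tyrosine kinase domain, and it had the largest fall of the 7 genes. Its level (probe set 8093440) was 10.95, 11.20 and 11.08 in vehicle and 9.64, 9.68 and 9.94 with vemurafenib. The groups were 1.01 apart, more than 3 times the widest spread within a group (0.30). The vehicle mean of 11.07 ± 0.12 dropped to 9.75 ± 0.16 (SD, n = 3), which is -1.32 on the log2 scale (SE 0.10, 95% interval -1.54 to -1.11) and a fall of 2.50-fold (interval 2.16 to 2.90), with a limma adjusted p of 7.25e-07. Only 234 of all genes (1.27%) fell as much or more. Of the olfactory receptor genes 0% had a mean as high as the FGFRL1 vehicle level. The change stayed between -1.42 and -1.26 over 17 alternatives, and the largest limma adjusted p among them was 1.21e-05.

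The sequences before the start sites of the genes with the largest fall and the largest rise are shown to give their promoter context. Both windows are the 250 bases before a transcript start in RefSeq's table for GRCh38.p14, written 5′ to 3′ on the gene's strand. The FGFR2 window shown is the outermost of 5 in the table. The FGFRL1 window is chr4:1012214-1012463 on the plus strand, and the FGFR2 window is chr10:121598445-121598694 on the minus strand. Capitals mark matches on either strand to 5 motifs searched for: CCGGAAG (ETS factors), TGANTCA (AP-1), CACGTG (E-box), GTAAACA (FOXO) and GGGCGG (SP factors).
FGFRL1: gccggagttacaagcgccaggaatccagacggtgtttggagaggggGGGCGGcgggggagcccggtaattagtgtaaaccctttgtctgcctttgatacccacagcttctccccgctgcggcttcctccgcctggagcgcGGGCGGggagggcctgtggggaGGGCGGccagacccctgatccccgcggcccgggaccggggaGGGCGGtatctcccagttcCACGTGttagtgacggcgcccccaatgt
FGFR2: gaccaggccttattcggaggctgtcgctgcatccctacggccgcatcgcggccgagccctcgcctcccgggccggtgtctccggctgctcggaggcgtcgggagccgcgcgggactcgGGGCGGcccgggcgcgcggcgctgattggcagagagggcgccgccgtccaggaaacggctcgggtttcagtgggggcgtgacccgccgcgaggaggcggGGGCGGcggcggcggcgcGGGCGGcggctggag
The FGFRL1 window held 1 E-box and 4 SP matches, and the FGFR2 window held 3 SP matches. Among all 35116 windows of that length in the table, 42.6% held the SP letters, 6.34% the E-box, 8.52% the ETS letters, 6.57% the AP-1 letters and 2.98% the FOXO letters. Windows of 6 of the 7 measured genes were searched, 11 windows in all, of which 5 belonged to FGFR2 and 2 to FGFR4. FGFR1 was left out of the search, so its promoter is not described here. ETS, AP-1 and FOXO letters were found in 0 of the 11, the E-box in 2 (FGFRL1 and 1 of FGFR4) and the SP letters in 7. Matches of different motifs overlapped in 0 of them. A match of letters is a description and says nothing of binding. The G and C content was 67.6% in the FGFRL1 window and 78.4% in the FGFR2 window, against a median of 58% over all windows. The other 4 FGFR2 windows, which lie within the gene, were poorer in G and C (42.8%, 50%, 50% and 49.2%), and SP letters were found in 1 of these 4. Which start A375 cells use was not measured, and the FGFRL1 window lies inside the outer limits of the annotated gene.

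FGF2, the ligand of the group, fell by a small amount that separated the groups. It measured 9.47, 9.33 and 9.36 in vehicle and 9.15, 9.10 and 9.06 with vemurafenib (probe set 8097256). The lowest vehicle array was 0.18 above the highest drug array. The group means were 9.39 ± 0.07 and 9.10 ± 0.05 (SD, n = 3), so that the log2 change was -0.28 (SE 0.07, 95% interval -0.44 to -0.12; limma adjusted p 0.00737). The FGF2 call held in 17 of 17 alternatives, most narrowly without vehicle replicate 1 (log2 change -0.24, limma adjusted p 0.0441). NUDT6 is transcribed from the opposite strand and overlaps the end of FGF2. It stood at 8.38, 8.14 and 8.44 in vehicle and at 8.24, 8.46 and 8.47 with vemurafenib, with groups that overlapped (log2 change 0.07, SE 0.10, 95% interval -0.15 to 0.28; limma adjusted p 0.608). The strand that the probe sets read is not given in the sources used here, and signal from the overlap cannot be assigned to either gene.

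FRS3, an adaptor that docks signalling proteins to FGF and neurotrophin receptors, had the highest adjusted p of the 7. Its values were 8.45, 8.47 and 8.35 in vehicle and 8.67, 8.49 and 8.84 with vemurafenib (probe set 8126337). The groups did not overlap by a margin of only 0.02, because vemurafenib replicate 2 lay next to the vehicle arrays. With means of 8.43 ± 0.06 and 8.67 ± 0.17 (SD, n = 3), the difference was 0.25 on the log2 scale (SE 0.09, 95% interval 0.04 to 0.45; limma adjusted p 0.0483). The FRS3 call ended in 10 of 17 alternatives, with limma adjusted p values from 0.011 to 0.156. When vehicle replicate 1, 2 or 3 was omitted the limma adjusted p was 0.0865, 0.0641 or 0.14, and when vemurafenib replicate 1 or 3 was omitted it was 0.106 or 0.156. Omitting vemurafenib replicate 2 instead gave a change of 0.33 and a limma adjusted p of 0.011.

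**Figure D2:**
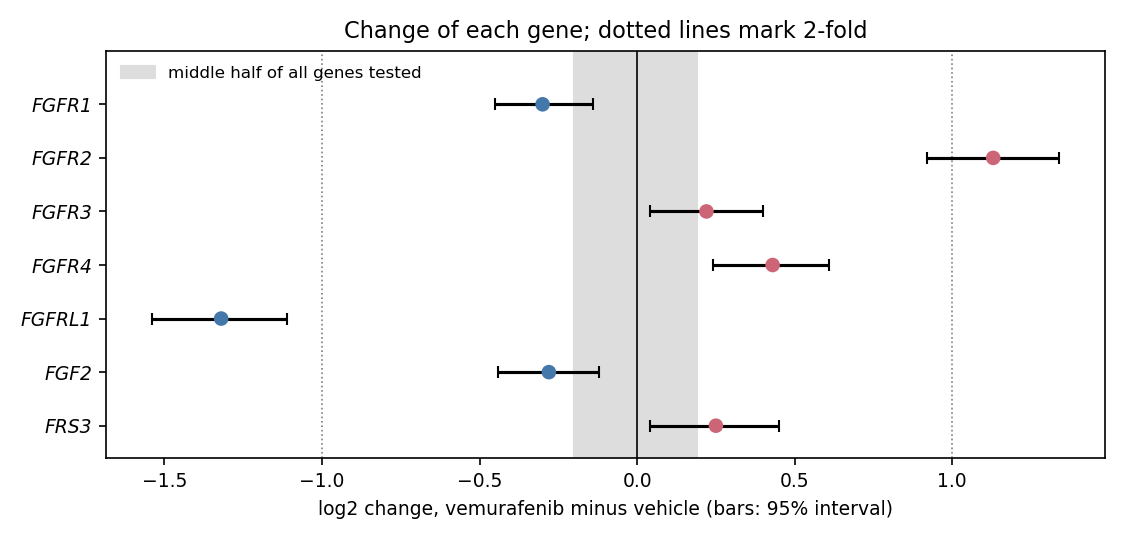
Log2 change (vemurafenib minus vehicle) of each gene with its 95% interval, red for higher and blue for lower. The grey band is the range from the lower to the upper quartile of all genes tested (-0.20 to 0.19), and FGFRL1 (-1.32) and FGFR2 (1.13) lie far outside it while FGFR3 (0.22) and FRS3 (0.25) lie just beyond its edge.

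The groups of arrays did not overlap for any of the 7 genes, a separation that 55.4% of all genes also showed. The spread within the drug group was at or above that within the vehicle group for 6 of the 7, with FGF2 as the exception (SD 0.05 against 0.07). Within the drug group, vemurafenib replicate 3 was the highest array for 6 of the 7 genes, and for FGF2 it was the lowest. Over all genes that array was the highest of its group for 40.9% and the lowest for 33.4%. For FGFR2, FGFR3, FGFR4, FRS3 and FGF2 vemurafenib replicate 3 lay farthest from vehicle, and for FGFR1 and FGFRL1 it lay nearest. Its part in these changes is given by the fits without it: the limma adjusted p was then 1.07e-05 for FGFR2, 0.00397 for FGFR4, 1.13e-06 for FGFRL1, 0.00477 for FGFR1 and 0.0224 for FGF2, whereas FGFR3 (0.134) and FRS3 (0.156) no longer passed.

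**Figure D3:**
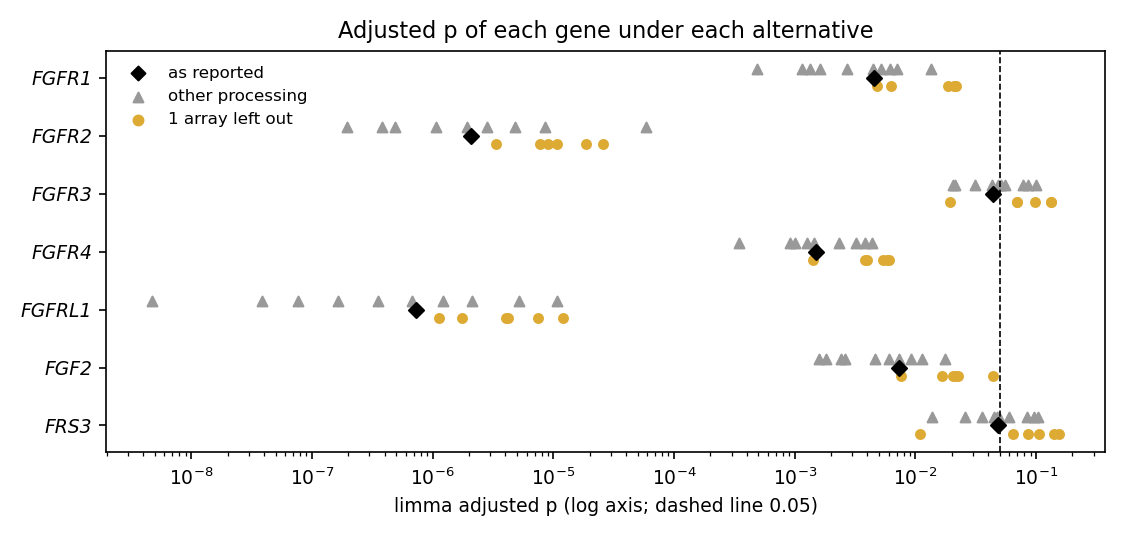
Limma adjusted p of each gene (log axis) as reported (black diamonds), under other processing at the same threshold (grey triangles) and with 1 array left out (yellow circles). The dashed line is the 0.05 threshold, which points of FGFR3 (up to 0.134) and FRS3 (up to 0.156) cross while those of the other 5 genes do not.

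The genes of most similar pattern were sought by the root mean square difference over the 6 arrays after each gene's vehicle mean was subtracted. Closest to FGFR2 were IL16, a cytokine gene (difference 0.046, log2 change 1.12), CYB5D2 (0.063, 1.15) and CD99L2 (0.075, 1.13). Closest to FGFRL1 were WIPF1, which encodes a partner of the actin regulator WASP (0.086, log2 change -1.38), HIVEP3 (0.103, -1.33) and PHLDA1 (0.111, -1.45). Such likeness reflects mainly the size of the change between groups.

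Among the other FGF ligands, FGF1 rose by more than 2-fold. Of 21 measured, 3 rose and 6 fell (42.9%, against 45.5% of all genes), and 7 were within the dimmest 25% of genes in both groups. FGF1, a ligand that binds all FGF receptors, was 7.47, 7.26 and 7.51 in vehicle and 9.46, 9.22 and 9.45 with vemurafenib. It rose 3.89-fold (log2 change 1.96, SE 0.09; limma adjusted p 2.90e-08), and the groups did not overlap. FGF11, an intracellular member of the family, rose 1.72-fold from 7.91 ± 0.05 to 8.69 ± 0.20 (SD, n = 3). FGF5, a secreted ligand, rose from a dim 6.47 ± 0.29 to 6.96 ± 0.18 (SD, n = 3; limma adjusted p 0.0107). FGF13, another intracellular member, fell 1.51-fold from 8.59 ± 0.04 to 7.99 ± 0.02 (SD, n = 3). The median change of the ligand list was -0.14, against -0.05 for all genes.

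Among 11 measured co-receptors and carriers of FGFs, 5 rose and 3 fell (72.7% passed, against 45.5% of all genes), and the median change was 0.01. FLRT1 and FLRT3 are membrane proteins that bind FGF receptors, and they moved apart: FLRT1 rose 1.88-fold (7.65 to 8.56) and FLRT3 fell 1.73-fold (10.86 to 10.07). FGFBP2, of the FGF binding protein family, rose 1.72-fold from a dim vehicle level of 6.73. The adhesion molecule gene L1CAM rose 1.71-fold (10.56 to 11.34). NCAM1, which can engage FGF receptors, fell by 0.30 on the log2 scale, and FGFBP1, which releases FGF2 from the matrix, fell by 0.32 to a dim level.

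Heparan sulfate genes, whose products hold FGFs at the cell surface and in the matrix, moved both ways. Of 34 measured, 10 rose and 9 fell (55.9% passed, against 45.5% of all genes), with a median of 0.05. The largest 4 changes were all rises: SULF1, a sulfatase that trims heparan sulfate and can reduce FGF binding, by 2.46-fold, the glypican gene GPC6 by 2.26-fold, HSPG2 (perlecan) by 2.06-fold and AGRN (agrin) by 1.81-fold. SULF1 measured 7.75, 7.77 and 7.94 in vehicle and 9.17, 9.07 and 9.11 with vemurafenib, so the groups were wide apart. The syndecan genes SDC3 and SDC1, picked for mention after their values were seen, fell 1.61-fold and 1.56-fold. SDC2 did not pass (log2 change -0.04, limma adjusted p 0.663), and SDC4 was not measured.

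Below the receptors, 10 of 20 measured adaptors and effectors rose and 4 fell (70% passed, against 45.5% of all genes), with a median change of 0.16. GAB1, a docking protein that binds GRB2 on FRS2, was 8.96, 8.96 and 8.98 in vehicle and 10.44, 10.60 and 10.46 with vemurafenib, a 2.88-fold rise (log2 change 1.53, SE 0.07; limma adjusted p 2.84e-08). The 2 probe sets of GAB1 disagreed, since their mean changed by only 0.78 (limma adjusted p 1.34e-05). CBLB, a ubiquitin ligase that marks receptors for breakdown, rose 2.63-fold from 9.79 ± 0.13 to 11.19 ± 0.18 (SD, n = 3). PIK3R1, the regulatory subunit of PI3K, rose 2.07-fold. SOS2 and SOS1, which load RAS with GTP, rose 1.58-fold and 1.35-fold. Against these, GRB2, the adaptor that brings SOS to the receptor, fell 1.20-fold (10.91 to 10.66; limma adjusted p 0.0102), and PTPN11, the gene of SHP2, fell 1.22-fold (11.63 to 11.34; limma adjusted p 0.00537). The remaining falls were those of SHC3 (-0.25, limma adjusted p 0.0179) and CBL (-0.21, limma adjusted p 0.034). The SHC3 call ended when replicate 2 of vehicle or of vemurafenib was omitted (limma adjusted p 0.0515 and 0.0552). For CBL the limma adjusted p was 0.0743 or 0.12 when vehicle replicate 1 or 3 was omitted, and 0.0611, 0.0527 or 0.092 when vemurafenib replicate 1, 2 or 3 was omitted.

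**Figure D4:**
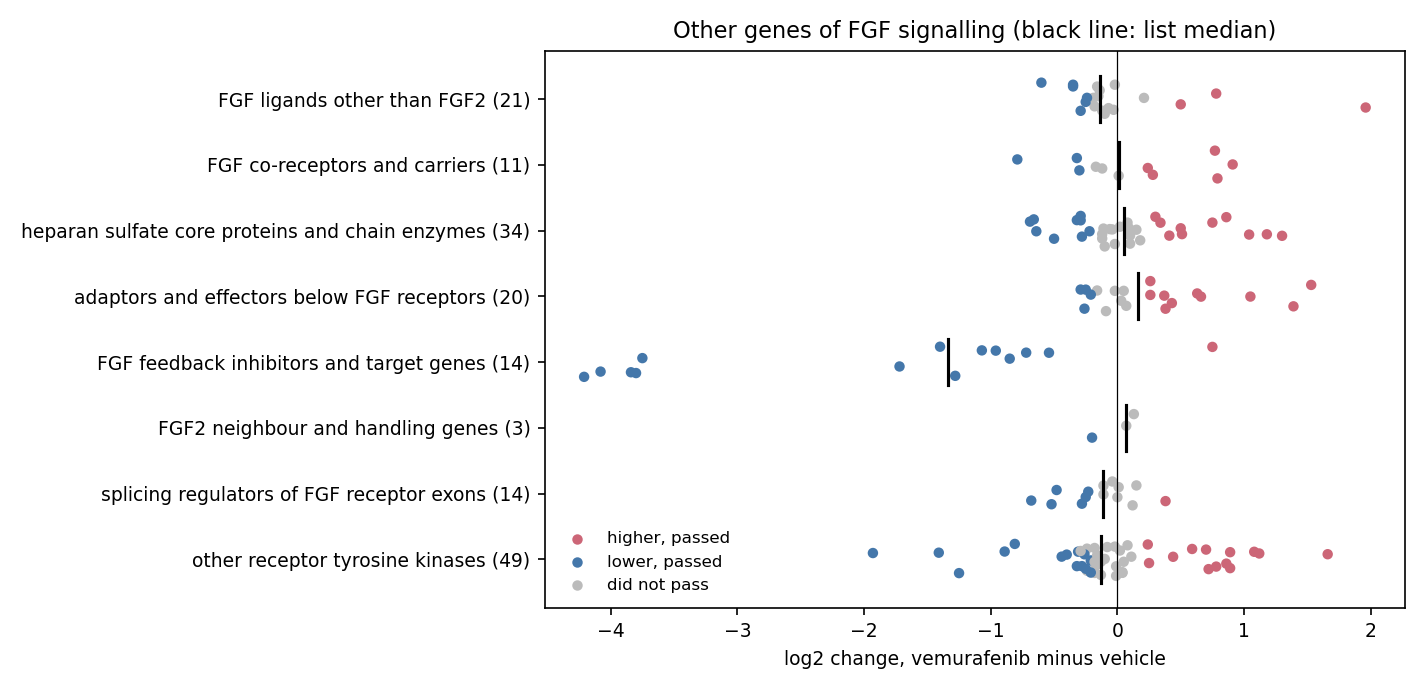
Log2 change (vemurafenib minus vehicle) of every measured gene of 8 lists related to FGF signalling, with the number measured in brackets, red and blue for genes that passed the limma threshold and grey for those that did not. The feedback and target list lies at the left (median -1.34), the other medians lie between -0.14 and 0.16, and the rightmost ligand is FGF1 (1.96).

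The genes that FGF signalling switches on through ERK fell together. Of 14 feedback inhibitors and target genes, 13 fell and 1 rose, with a median change of -1.34, where 22.2% of all genes fell. At least 2-fold falls were seen for 9 of the 14, against 2.62% of all genes. This list overlaps genes already known to fall in these samples and is not independent evidence of its direction. DUSP6, ETV5, ETV4 and SPRY2 changed by -4.21, -4.08, -3.84 and -3.80. The level of ETV5 with vemurafenib (6.83) was dim, so its change is limited by background. The exception was SPRY3, which rose 1.69-fold from a dim 6.85 ± 0.10 to 7.60 ± 0.15 (SD, n = 3; limma adjusted p 3.89e-05).

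Of 14 measured regulators of splicing known to act on FGF receptor exons or related ones, 6 fell and 1 rose (50% passed, near the 45.5% of all genes). PTBP1, a repressor of exon inclusion, fell 1.61-fold (12.83 to 12.15), HNRNPF 1.43-fold and HNRNPM 1.40-fold, whereas TIA1, which promotes exon inclusion, rose 1.31-fold (11.14 to 11.52). Among genes tied to FGF2 handling, API5, a nuclear partner of FGF2, changed by -0.20 (12.06 to 11.85; limma adjusted p 0.0419) and TEC, a kinase linked to FGF2 export, stood at 7.40 and 7.53 (limma adjusted p 0.149). For API5 the limma adjusted p was 0.0824 or 0.17 when vehicle replicate 1 or 3 was omitted, and 0.12, 0.0684 or 0.0702 when vemurafenib replicate 1, 2 or 3 was omitted.

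Other receptor tyrosine kinases also moved in both directions. Of 49 measured, 13 rose and 14 fell (55.1% passed, against 45.5% of all genes), and the median change was -0.13. Of these, 3 rose and 3 fell by at least 2-fold, against 3.07% and 2.62% of all genes. The largest changes were those of ROR1 (-1.93), EPHA5 (1.66, from a dim 6.11), EPHA2 (-1.41) and EGFR (-1.25). No test compared the FGF receptors with these.

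Markers of cells that a melanoma culture should not hold were read as a check. The sum of the log2 levels of 7 keratinocyte markers ran from 48.3 to 48.9 in vehicle and from 48.4 to 49.7 with vemurafenib. Of these markers 1 rose (KRT15). For 7 endothelial markers the sums were 47.1 to 48.1 and 45.8 to 46.7, for 7 leukocyte markers 51.6 to 52.5 and 51.7 to 52.2, and for 8 fibroblast markers 58.2 to 59.4 and 61.1 to 62.4. Among the fibroblast markers DCN, LUM and PDGFRB rose and PDPN fell. Of the endothelial markers 0 rose and 3 fell, and without vemurafenib replicate 1 or vemurafenib replicate 2 the number past the threshold was 1. Of the leukocyte markers CD68 rose, and LYZ and CD14 fell. The defining leukocyte marker PTPRC stood at 4.53 in vehicle, below the olfactory receptor median. The part of these markers in the changes of the FGF genes was not tested.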

How the data were processed

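Biotin-labelled RNA (250 ng per array) of 6 A375 dishes, 3 per group, was measured on Affymetrix arrays. The values are deposited on the log2 scale, 1 per probe set and array. The submitters' processing notes name RMA and Partek and give no version. No source used here gives the genome build, the summarization level or any handling of batches. The table held 33297 probe sets, 0 missing values and 0 columns of other samples, with values from 2.67 to 14.56. Through the platform annotation, 19460 probe sets named 1 gene, 1754 several and 12083 none. The set with the highest mean was kept for each gene (18417 genes), and Entrez identifiers of the 7 measured members matched the current RefSeq table.

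Groups came from the sample titles, and the genotype of the line is not reported here. Differences were tested with limma 3.58.1 (R 4.3.3, lmFit and eBayes, group as the only term, 2-sided, Benjamini-Hochberg over all genes, threshold 0.05, 7.08 prior degrees of freedom) with 95% intervals and no filter on dim genes. The design text pairs dishes by letter, but nearly all array labels lack a letter. The script was tested on simulated data, in which far fewer genes were changed than passed here. It recovered 50 of 50 genes with a log2 change of 1, 47 of 50 at 0.5 and 11 of 50 at 0.25. The alternatives tried were a replicate block, fixed or random (statmod 1.5.0), array medians set equal, a second quantile normalization, leaving out the dimmest 25% or 50% of genes, averaging the probe sets of a gene, eBayes with trend and robust settings, weights per array, a 0.01 threshold and leaving out single arrays. Centring on the medians of the tested genes was added after the data were seen.

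All measured members are named. So are up to 4 passing genes of each list, taken by the size of their change, any gene of lists of 8 or fewer measured genes, exceptions of 5 or fewer, and GRB2, SOS1, GAB1, PTPN11 and NUDT6 in any case. The 3 genes nearest to the largest riser and to the largest faller are also named. The syndecan genes were named outside these rules. The members and lists were chosen with earlier results of these data known. Figures were drawn with matplotlib 3.10.9 in Python 3.11.15, using pandas 2.3.3 and numpy 2.4.6.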

Additional observations from a re-analysis of the deposited data

How the results depend on the processing

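The calls of FGFRL1, FGFR1 and FGF2 were kept in 17 of 17 alternatives, and those of FGFR2 and FGFR4 in 16 of 16, since both genes are left out with the dimmest 50%. Among these alternatives, averaging probe sets could not change the members' values, since each had 1 probe set. The 0.01 threshold used the fit as reported. The number of members past the threshold, 7 as reported, was 5 to 7. The number of higher members, 4 as reported, was 2 with a replicate block, a random replicate block, renewed quantile normalization, a threshold of 0.01, centring on the medians of the tested genes, or without the dimmest 50%, and 2 to 4 when 1 array was left out. The number of lower members was 3 throughout. Numbers of listed genes past the threshold changed as follows. Without the dimmest 50% there were 1 of the other ligands (9 as reported), 3 of the co-receptors and carriers (8) and 12 of the heparan sulfate genes (19). At a threshold of 0.01 there were 5 of the other ligands and 9 of the adaptors and effectors (14). The single call among FGF2 neighbour and handling genes, API5, became 0 with a replicate block, a random replicate block, renewed quantile normalization or a threshold of 0.01, and 0 to 1 when 1 array was left out. The cause of these losses was not tested, except that a stricter threshold can only remove calls and a dim-gene filter leaves dim genes untested. Centring on the medians of the tested genes shifted every log2 change by -0.061. By other processing, the FGFR3 call also ended with a random replicate block (limma adjusted p 0.0555), centring on array medians (0.0512), centring on the medians of the tested genes (0.0998) and renewed quantile normalization (0.0856), and the FRS3 call with a random replicate block (0.0593), centring on the medians of the tested genes (0.104) and renewed quantile normalization (0.0967).

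Same-numbered arrays did not all deviate together. Their deviations from the group means correlated across genes at 0.142, -0.184 and -0.251 for numbers 1, 2 and 3. The numbers were therefore not taken as pairs. For arrays of different numbers the correlations ran from -0.143 to 0.279. The highest were vehicle 2 with vemurafenib 3 (0.279) and vehicle 3 with vemurafenib 2 (0.225). The replicate block follows the array numbers, and no block by another pairing was fitted. With the replicate block, 7606 genes passed in place of 8371, and FGFR3 (limma adjusted p 0.0782) and FRS3 (0.0834) did not. Fits without 1 array assume a common spread in both groups. Signal near background limits FGFR2 in vehicle, and 3 arrays per group limit the small changes.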
